A study of Mus musculus with 5 samples.

Results

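The EGR, NR4A and IER immediate-early genes described here are 9 genes of 18193 with a probe set that carries 1 gene symbol on the array. They were chosen by symbol, as Egr1, Egr2, Egr3, Nr4a1, Nr4a2, Nr4a3, Ier2, Ier3 and Ier5, and have 20 of the 34945 single-gene probe sets. Their mRNA was measured with Affymetrix mouse genome arrays in long-lived plasma cells (PCs) from the bone marrow (BM) of C57BL/6J mice. All mice had been primed with NP-CCG (written NP-CGG in the study's methods), a hapten coupled to a carrier protein, in incomplete Freund's adjuvant and then boosted with it, and their PCs were taken more than a month after the last boost by magnetic depletion of cells bearing B220 or CD49b and enrichment of CD138high cells. Ex vivo PCs (2 arrays, 1 from each of 2 experiments) were processed for RNA directly. Cultured PCs (3 arrays, 1 from experiment 1 and 2 from experiment 2) were kept for 3 days at physiological oxygen with APRIL, the ligand of BCMA on PCs, and ST2 cells, a mouse BM stromal cell line, and were then sorted by flow cytometry. Culture, the time since isolation and the sort are the same division of the arrays and cannot be told apart. Nothing in the labels says that the 2 cultured arrays of experiment 2, called E2-1 and E2-2 here, come from separate cultures. The p-values rest at least in part on the spread between E2-1 and E2-2, which may be technical.

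Immediate-early genes are transcribed within minutes of a stimulus without new protein synthesis, mainly through the ERK cascade acting on SRF and its ternary complex partners and through CREB, and their mRNAs are short-lived. EGR proteins are zinc-finger transcription factors that bind GC-rich sites and are restrained by the NAB co-repressors. NR4A proteins are orphan nuclear receptors that act without a known ligand, and in B cells Egr1 and Nr4a1 are classical targets of antigen receptor signalling. The IER genes share the mode of induction rather than a protein fold.

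Stretches upstream of 4 members are shown because they hold motifs of the regulators named above. RefSeq windows (GRCm38.p6) of the 250 bases before annotated starts were matched by symbol for Egr2, Nr4a1, Nr4a2, Nr4a3, Ier3 and Ier5, and both strands were searched. No window was available for Egr1, Egr3 and Ier2, so these members were not searched. Each line gives 30 bases, 5′ to 3′ on the gene's strand. Capitals mark the CRE core, which is the TGACG or CGTCA of a CREB site, and in Egr2 also the CArG box, the motif bound by SRF.
Egr2, chr10:67537490-67537519, plus strand: ttctCCTTTTTTGGaaagtctcggagaacc
Egr2, chr10:67537754-67537783, plus strand: catgTGACGgcaaaagctgccaggcccagc
Egr2, chr10:67537793-67537822, plus strand: cagtCCATATATGGgcagcgaCGTCAcggg
Nr4a1, chr15:101266609-101266638, plus strand: cctgCGTCAatggaaccccgcgtgCGTCAc
Nr4a1, chr15:101266802-101266831, plus strand: catgCGTCAcggagcgcttaagatgtgggt
Nr4a2, chr2:57124122-57124151, minus strand: cacgCGTCAcggagcccggccgggcTGACG
Nr4a3, chr4:48045070-48045099, plus strand: agggTGACGtagcgtcccatgtCGTCAcat

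Egr2 has 5 windows, some of which overlap, and they held 2 distinct CArG boxes, both printed above. The windows of the other 5 genes held none. Genome-wide, 1.62% of 27025 genes have a window with a CArG box. Egr2 had the same 2 CRE cores in 3 overlapping windows, and Nr4a1, Nr4a2 and Nr4a3 had 4 each. The CRE core occurs in 17.8% of all windows. The windows of Ier3 and Ier5 held neither motif. The full CRE (TGACGTCA, in 1.55% of all windows and containing the core), the NR4A element AAAGGTCA (1.34%) and the EGR site GCGTGGGCG (0.536%) had no match in any of the member windows searched. A match is a run of letters and not a measured binding site.

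With culture, the mRNA of Egr1, Egr2 and Ier2 was lower in all 3 cultured arrays than in both ex vivo arrays, Egr1 by 12.8-fold in the fit with the experiment as a block. The tested probe set of Egr3 was also lower in every cultured array, by a smaller amount. The NR4A genes, Ier3 and Ier5 moved little or in both directions. Levels are log2 of the deposited intensity, and a change is a difference of log2 levels, cultured minus ex vivo. A probe set was tested if its intensity reached 50 (the dashed line in the plot of levels) in at least 2 arrays. This held for 15 of the 20 member probe sets and for 8 of the 9 genes. All 15 were at 50 or above on all 5 arrays and the other 5 were below it on all 5, so no member passed through 1 group. In limma without a term for the experiment, 0 of the 15 passed an adjusted p of 0.05 in either direction, against 0.0295% of all 30477 tested probe sets lower and 0.0164% higher. At an unadjusted p under 0.05, 4 of the 15 were lower and none was higher, where 794 and 1213 of the 30477 were. With the experiment as a block, which removes level differences between the experiments, 4 of the 15 fell (26.7%, against 0.561% of all tested probe sets) and none rose (against 1.24%). These were Egr1, both probe sets of Egr2, and Ier2. In a simulated data set, drawn once with known changes added, the share of false calls exceeded the adjusted p threshold with the block. That draw cannot give the share of false calls in these data, but calls with the block may be less certain than their adjusted p states. The members were also chosen with earlier results of these data known. Every cultured array lay below every ex vivo array for 5 of the 15 (10.6% of all tested probe sets did so) and above for 1 (9.42%). The median change of the 15 was -0.27, or -0.20 with the block, beside -0.02 over all tested probe sets in both fits. In bulk RNA, fewer cells of a type and less RNA per cell cannot be told apart.

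**Figure D1:**
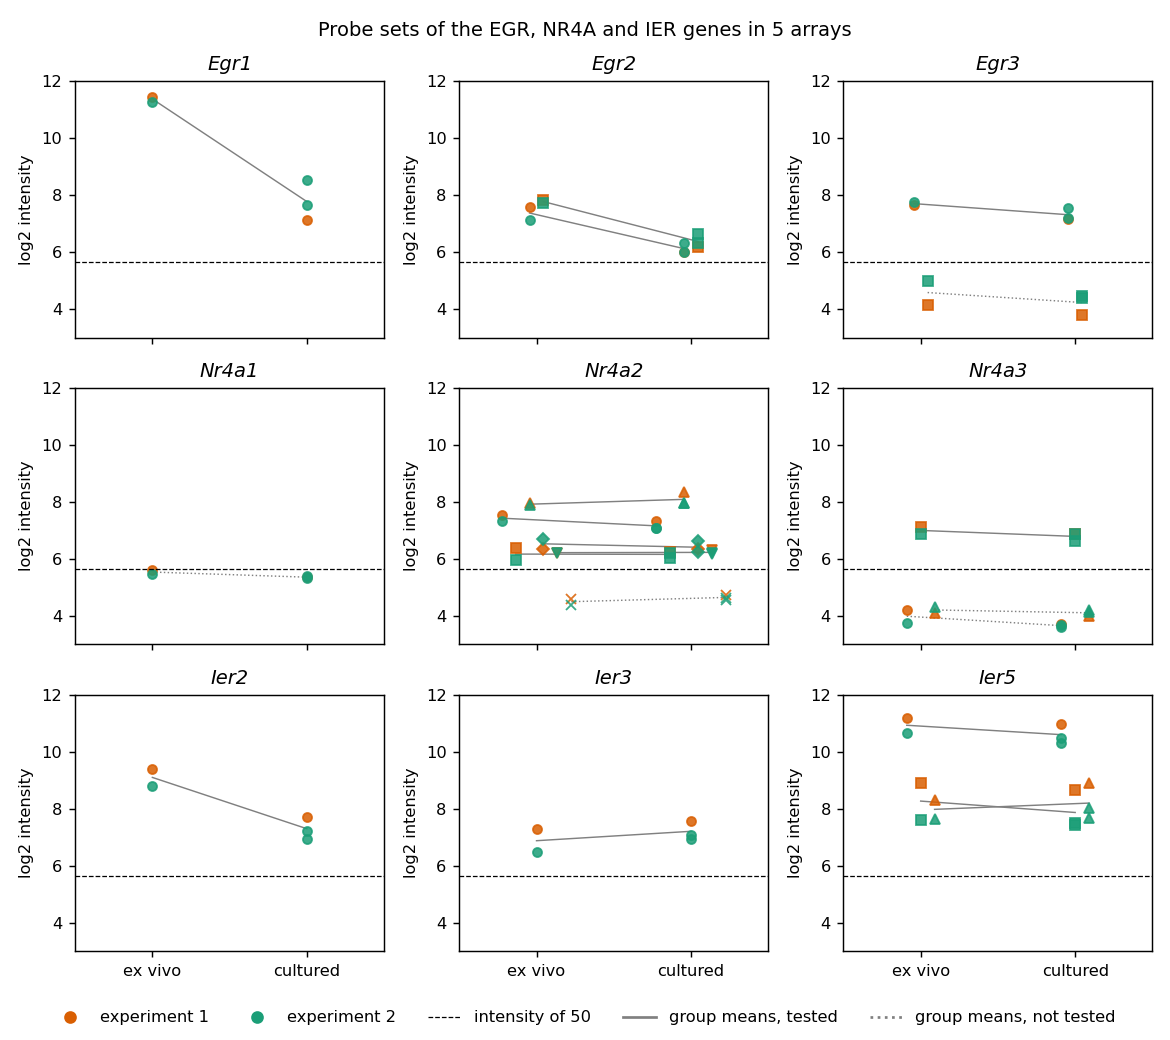
Log2 intensity of each of the 20 member probe sets (y axis) in the 2 ex vivo and 3 cultured arrays (x axis), 1 panel per gene, with 1 marker shape per probe set and colour for the experiment. Lines join group means, solid for the 15 tested and dotted for the 5 untested probe sets, and the dashed line is an intensity of 50. Egr1, Egr2 and Ier2 are lower in every cultured array. By smaller amounts, so are Egr3 1421486_at and the untested Nr4a1 1416505_at and Nr4a3 1421079_at. The points of Ier3 and Ier5 are divided by experiment.

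Egr1, the zinc-finger factor most often used as a readout of ERK activity, had the widest change of the members. Its probe set 1417065_at read 11.45 and 11.28 ex vivo (experiments 1 and 2) and 7.13 (experiment 1), 7.66 and 8.52 (E2-1 and E2-2) in culture. Both ex vivo arrays were high and close to each other, and the cultured arrays were spread over more than a log2 unit, with E2-2 the highest. The means were 11.37 ± 0.12 (SD, n = 2) and 7.77 ± 0.70 (SD, n = 3). Within experiments the changes were -4.32 in experiment 1 and -3.62 and -2.75 in experiment 2. The fitted change was -3.59 (SE 0.42, limma adjusted p = 0.11), and with the block it was -3.67 (SE 0.35, adjusted p = 0.0147), or 12.8-fold lower in culture. It stayed between -3.97 and -3.28 in all 21 alternatives tried. The call passed only in settings with the block, and there it was near the threshold without the intensity filter (limma adjusted p = 0.0498).

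Egr2, a relative of Egr1 that restrains lymphocyte activation, was lower in culture by both of its probe sets. The probe set 1427683_at read 7.81 and 7.73 ex vivo and 6.19, 6.32 and 6.62 in culture. The other, 1427682_a_at, read 7.59 and 7.14 ex vivo and 6.01, 6.01 and 6.33 in culture. The groups did not overlap for either, and in both the cultured array E2-2 was the highest of the 3, as for Egr1. The fitted changes were -1.40 (SE 0.17, limma adjusted p = 0.13) for 1427683_at and -1.25 (SE 0.21, adjusted p = 0.25) for 1427682_a_at. With the block they were -1.42 (SE 0.15, adjusted p = 0.0208) and -1.23 (SE 0.19, adjusted p = 0.0463), 2.67-fold and 2.35-fold lower. The call for 1427682_a_at was lost with the block when E2-1 (adjusted p = 0.0869) or E2-2 (0.0683) was left out, when both were averaged (0.0787) or when intensities below 50 were set to 50 (0.063). Neither Egr2 call passed with the block when all probe sets were tested without the intensity filter (0.0536 and 0.0896).

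Egr3, the third zinc-finger factor of the family, differed less between the groups. Its probe set 1421486_at read 7.65 and 7.75 ex vivo and 7.17, 7.21 and 7.56 in culture. The cultured arrays were all below the ex vivo arrays, E2-2 by the least. The change was -0.39 (SE 0.17, limma adjusted p = 0.81), or -0.42 with the block (95% interval -0.77 to -0.06, adjusted p = 0.22), so the gene did not pass. The other probe set, 1436329_at, had means of 4.58 ± 0.60 (SD, n = 2) ex vivo and 4.23 ± 0.36 (SD, n = 3) in culture, was below the minimum on every array, and was not tested.

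**Figure D2:**
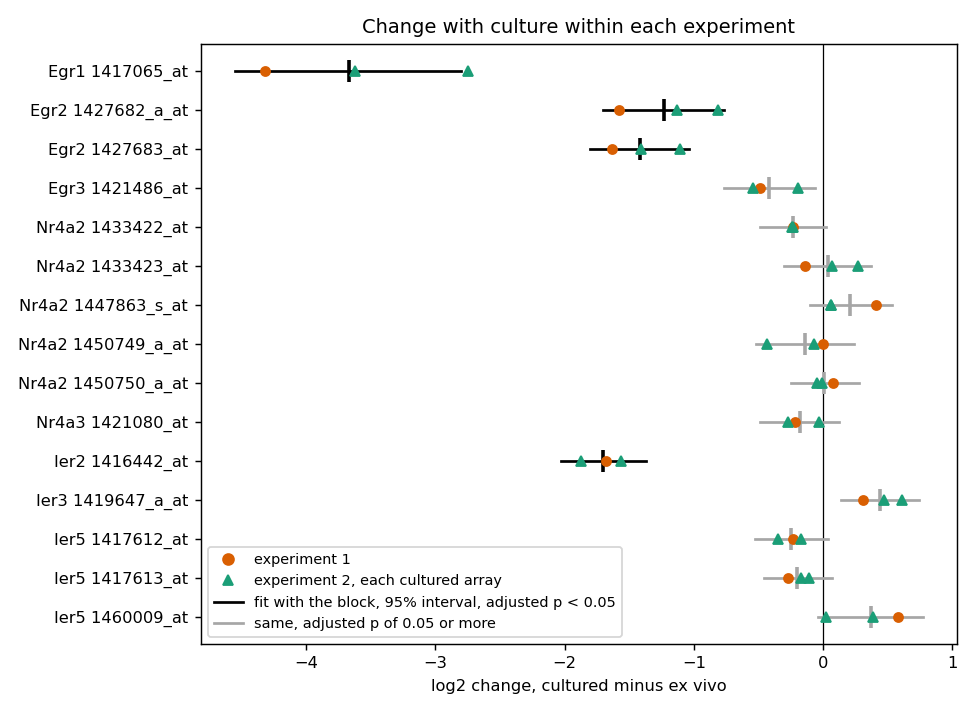
Log2 change with culture (x axis, cultured minus ex vivo) of the 15 tested member probe sets (y axis), within experiment 1 (circles) and for each cultured array of experiment 2 (triangles), with the estimate (tick) and 95% interval of the fit with the experiment as a block (black where the adjusted p was under 0.05). Egr1 lies furthest to the left, at -4.32, -3.62 and -2.75, and Egr2 and Ier2 are the only others drawn in black.

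The NR4A receptors gave low signals and small differences, and 0 of their 6 tested probe sets passed either fit or had an unadjusted p under 0.05 without the block. Nr4a1, which encodes NUR77, has 1 probe set, 1416505_at, at 5.60 and 5.48 ex vivo and 5.35, 5.40 and 5.34 in culture. The cultured values were all below the ex vivo values, but every array was under the minimum and the gene was not tested. So 1 of the 2 genes named above as targets of antigen receptor signalling gave a signal that could be tested here.

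Nr4a2, which encodes NURR1, has 6 probe sets, of which 5 were tested. The brightest, 1447863_s_at, read 7.95 and 7.89 ex vivo and 8.36, 7.95 and 7.95 in culture. It was the 1 member probe set with every cultured array above every ex vivo array, by 0.41 within experiment 1 and by 0.06 for each cultured array of experiment 2, and its change with the block was 0.21 (95% interval -0.10 to 0.53, limma adjusted p = 0.44). The probe set 1433422_at read 7.55 and 7.32 ex vivo and 7.32, 7.07 and 7.09 in culture. Its groups overlapped, although each experiment had nearly the same change, -0.23 in experiment 1 and -0.24 and -0.23 in experiment 2, and the block fit gave -0.23 (95% interval -0.49 to 0.02, adjusted p = 0.31). The remaining probe sets 1433423_at, 1450749_a_at and 1450750_a_at changed by 0.04, -0.14 and 0.01 with the block. The untested 1455034_at lay between 4.38 and 4.74 over the 5 arrays.

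Nr4a3, which encodes NOR1, was tested by 1421080_at, at 7.12 and 6.89 ex vivo and 6.89, 6.86 and 6.63 in culture. The groups met at 6.89, and the change was -0.21 (SE 0.16, limma adjusted p = 0.88), or -0.18 with the block (95% interval -0.49 to 0.12, adjusted p = 0.49). Its untested probe sets 1421079_at and 1438796_at stayed between 3.60 and 4.32. The intervals with the block of the 6 tested NR4A probe sets ran from -0.52 to 0.53. Some of these probe sets lay little above the minimum, with ex vivo means of 6.17 for Nr4a2 1433423_at and 6.22 for 1450750_a_at. A fall of the size seen for Egr1 or Ier2 may not be detectable from such levels, so the intervals cannot exclude it.

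Ier2, a nuclear protein induced by growth factors and serum, was lower in culture by a similar amount in each experiment. Its probe set 1416442_at read 9.39 and 8.80 ex vivo and 7.72, 6.93 and 7.23 in culture. Experiment 1 was the higher in both groups, and no cultured array reached an ex vivo array. The means were 9.10 ± 0.42 (SD, n = 2) and 7.30 ± 0.40 (SD, n = 3), and the changes within experiments were -1.68, -1.87 and -1.56. The fitted change was -1.80 (SE 0.31, limma adjusted p = 0.26), and with the block it was -1.70 (SE 0.13, adjusted p = 0.0083), 3.25-fold lower in culture. With the block this call held in all 7 further settings tried, with adjusted p from 0.00583 to 0.0259.

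Ier3, a stress-induced gene that affects cell survival, did not share this direction. Its probe set 1419647_a_at read 7.28 and 6.48 ex vivo and 7.58, 6.95 and 7.09 in culture. The cultured value was the higher within each experiment, while over all arrays the groups overlapped. The change was 0.33 (SE 0.32, limma adjusted p = 0.91), or 0.44 with the block (95% interval 0.14 to 0.74, adjusted p = 0.15), and did not pass.

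Ier5, whose product binds protein phosphatase 2A and HSF1, has 3 probe sets that followed the experiment more than culture. The probe set 1417612_at read 11.20 and 10.67 ex vivo and 10.97, 10.49 and 10.32 in culture. The probe set 1417613_at read 8.92 and 7.61 ex vivo and 8.65, 7.51 and 7.44 in culture. In both, each experiment held its own level, experiment 1 the higher. The third, 1460009_at, read 8.32 and 7.65 ex vivo and 8.90, 7.67 and 8.04 in culture, with the same order of experiments. The changes with the block were -0.25 (95% interval -0.53 to 0.04), -0.20 (-0.46 to 0.07) and 0.37 (-0.04 to 0.77), with limma adjusted p of 0.32, 0.41 and 0.31, so the probe sets differed in sign and none passed.

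The arrays also allow the experiments to be compared, with culture as a covariate. All 5 IER probe sets were lower in experiment 2 than in experiment 1, and none of the 10 tested EGR and NR4A probe sets passed this test. Over the members, 5 of 15 were lower (33.3%, against 13.8% of all tested probe sets) and 0 were higher (13.0%). The 5 are probe sets of 3 genes, so they are not separate genes. The differences, experiment 2 minus experiment 1, were -0.62 for Ier2 (SE 0.13, limma adjusted p = 0.0239) and -0.66 for Ier3 (SE 0.12, adjusted p = 0.0153). For Ier5 they were -1.24 for 1417613_at (SE 0.11, adjusted p = 0.0033), -0.89 for 1460009_at (SE 0.16, adjusted p = 0.0159) and -0.55 for 1417612_at (SE 0.11, adjusted p = 0.0219). For Egr1 the difference was 0.47 (SE 0.35, adjusted p = 0.36). These calls numbered 0 when 1 of the ex vivo arrays, of either experiment, or the experiment 1 cultured array was left out, and 5 and 4 without E2-1 and E2-2. Control probe sets for the ends of transcripts were divided by experiment too. For Gapdh, the 3′ control probe set exceeded the 5′ one on the log2 scale by 0.74 and 0.63 in the ex vivo and cultured arrays of experiment 1, and 0.34, 0.30 and 0.28 in the ex vivo array, E2-1 and E2-2. For Actb this log2 difference was 0.31 and 0.77 in experiment 1 and -0.12, -0.11 and -0.01 in experiment 2. Their part in the IER differences was not tested.

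**Figure D3:**
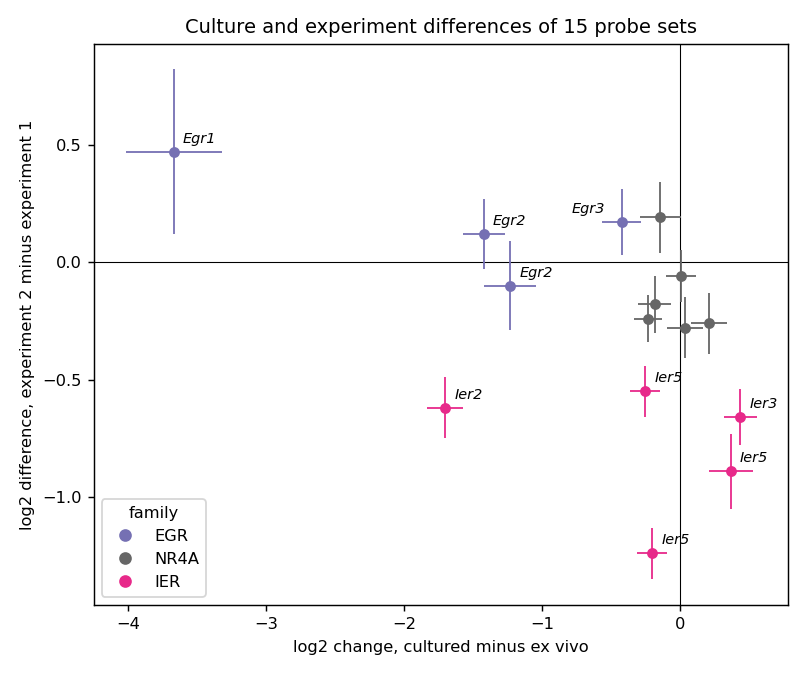
Each point is 1 of the 15 tested member probe sets, by its log2 change with culture (x axis) and its log2 difference between the experiments (y axis) in the limma fit with both terms. Bars are standard errors and colour gives the family. All 5 IER points lie below -0.5 on the y axis, and Egr1, Egr2 and Ier2 lie to the left of -1 on the x axis.

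Whether the change with culture differed between the experiments was tested as an interaction, which has 1 residual degree of freedom. It passed for 0 of the 15 member probe sets in limma, and none of them reached an unadjusted p of 0.05. Over all tested probe sets it passed for 0, with 2008 at an unadjusted p under 0.05. For Egr1, whose changes were the most spread, the interaction was 1.14 (adjusted p = 0.69).

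Around the members, 6 lists of regulators and related genes were examined, with the brightest tested probe set of each gene. Of 89 listed genes, 72 were tested. None passed limma without the block, and with it 2 fell and 2 rose. Over all tested probe sets 0.561% fell and 1.24% rose with the block. The upstream lists held no call in either fit. In the ERK and kinase cascade, 0 of 7 tested genes passed, and those with the largest changes were Braf (0.24 with the block, adjusted p = 0.32) and Map2k1, which encodes MEK1 (0.20, adjusted p = 0.43). Among SRF, TCF, CREB and MEF2 factors, 0 of 16 passed, with Creb1, which encodes CREB, at 0.42 (adjusted p = 0.21) and Crem, a relative of it, at -0.39 (adjusted p = 0.28). These are mRNA levels and not the activity of the kinases or factors.

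Of 8 tested EGR co-repressors and reported targets, 1 rose with the block (1.24% of all tested probe sets did). This was Ndrg1, a gene named for its repression by N-Myc and known to be induced by low oxygen, which read 6.63 and 6.66 ex vivo and 8.11, 8.85 and 9.19 in culture. Its change was 1.99 (SE 0.23, limma adjusted p = 0.0241), higher in every cultured array. Of 7 tested NR4A partners and repressors none passed, with the class II histone deacetylases Hdac7 at -0.22 (adjusted p = 0.46) and Hdac4 at -0.17 (adjusted p = 0.47). Of 6 tested IER5 partners and IER relatives none passed either, with the HSP40 co-chaperone Dnajb1 at -0.40 (adjusted p = 0.37) and Ier3ip1 at -0.17 (adjusted p = 0.49).

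Of 28 other primary response genes tested, 2 fell and 1 rose with the block (0.561% and 1.24% of all tested probe sets did). Rgs2, a regulator of G protein signalling, read 7.06 and 7.53 ex vivo and 5.91, 6.57 and 6.23 in culture, a change of -1.14 (SE 0.14, limma adjusted p = 0.0276). Rhob, a small GTPase, read 12.20 and 12.09 ex vivo and 10.85, 11.22 and 11.25 in culture, a change of -1.07 (SE 0.15, adjusted p = 0.0354). Both were lower in every cultured array, as Egr1, Egr2 and Ier2 were. Errfi1, a feedback inhibitor of the EGF receptor, read 5.48 and 5.81 ex vivo and 6.88, 7.85 and 8.32 in culture, a change of 1.90 (SE 0.25, adjusted p = 0.0321). Among the cultured arrays Errfi1 and Ndrg1 were lowest in experiment 1 and highest in E2-2, the order of the summed stromal markers given below. Those sums were close in E2-1 (17637) and E2-2 (17847), so they hardly separate these arrays. Egr1, 1 probe set of Egr2, the tested probe set of Egr3 and Rhob, all lower in culture, had the same order. The other Egr2 probe set read 6.01 in experiment 1 and in E2-1. Ier2 and Rgs2 had other orders. The part of stromal cells in the rises of Errfi1 and Ndrg1, or in these orders, was not tested. The median change of this list with the block was -0.06, beside -1.33 for the 4 tested EGR probe sets, -0.06 for the 6 of the NR4A genes and -0.20 for the 5 of the IER genes. The list counts 1 probe set per gene, while the family medians count every tested probe set.

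**Figure D4:**
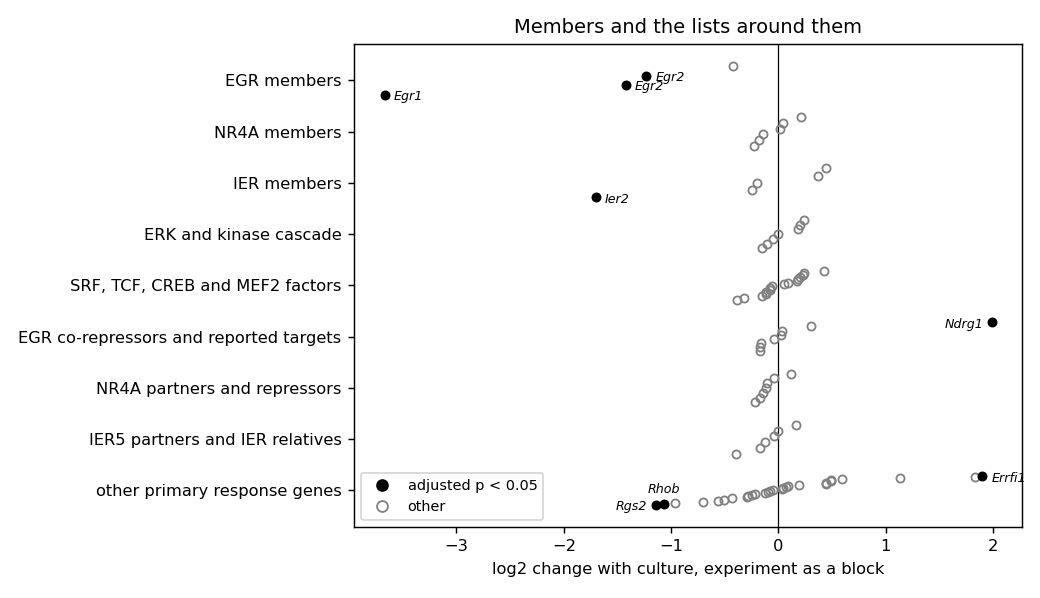
Log2 change with culture, with the experiment as a block (x axis), of the tested member probe sets by family and of the tested genes of the 6 lists (rows), spread vertically within a row. Filled points passed an adjusted p of 0.05 in limma. Egr1 at -3.67 lies apart from every other point drawn, and the upstream lists stay within -0.39 and 0.42. Jun, Dusp1 and Klf2 are in none of the lists and are not drawn.

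Genes with the profile most like that of Egr1 and of Ier2 over the 5 arrays were found by the root mean square difference of log2 levels, each centred on its own mean, among 13577 other genes. This is a description over the same arrays, with no test. For Egr1 the nearest were H3f3b, which encodes histone H3.3 (0.41), the zinc-finger factor Klf2 (0.46), the MAP kinase phosphatase Dusp1 (0.55), the AP-1 subunit Jun (0.76) and the complement gene C1qb (0.78), where the median over all genes was 1.81. H3f3b read 12.15 and 11.82 ex vivo and 8.34, 8.99 and 10.18 in culture, so it shared with Egr1 the order of the cultured arrays, E2-2 the highest. Klf2 read 9.94 and 9.68 ex vivo and 6.44, 6.49 and 6.47 in culture, without that spread. For Ier2 the nearest were Kcnmb4os2 (0.13), Kcnmb4, a potassium channel subunit (0.17), the cholesterol transporter Abcg1 (0.21), Stmnd1 (0.23) and Ccdc173 (0.24), with a median over all genes of 0.92. Kcnmb4os2 is named as an opposite strand transcript of Kcnmb4, so the signals of this pair may not be separate. Nr4a1 had no tested probe set and was not compared.

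The cell type labels and other cells were checked with marker lists. Over all tested probe sets, 0.561% fell and 1.24% rose with the block, and 0.0295% and 0.0164% did so without it. All 10 PC markers were tested and none passed either fit, and their summed intensity was 67048 to 67411 ex vivo and 60989 to 62353 in culture. Of 16 tested stromal markers, 1 rose without the block and 11 with it, and their summed intensity was 1501 to 1511 ex vivo, 6697 in the cultured array of experiment 1, 17637 in E2-1 and 17847 in E2-2. The largest of these changes was that of Col6a1, a collagen gene (5.88 with the block, SE 0.48, limma adjusted p = 0.00917). Of 10 tested macrophage markers, 1 fell without the block, and 6 fell and 1 rose with it, with summed intensities of 1945 to 2592 ex vivo and 1736 to 2180 in culture. The 1 that rose was Cd68, the brightest of the 10, at 9.65 and 9.31 ex vivo and 10.53, 10.39 and 10.05 in culture. Its rise enters the sums beside the 6 falls, so the sums do not show those falls. C1qb, named above beside Egr1, is one of the 6, at 8.06 and 7.01 ex vivo and 5.18, 5.07 and 5.28 in culture. With the block, 2 of 6 tested B cell markers (Cd72 and Dntt) and 1 of 3 T and NK cell markers (Gzma) also fell, and 0 of 4 neutrophil and 0 of 1 erythroid markers passed. The part of these cells in the levels of Egr1, Egr2, Ier2, Errfi1, Ndrg1 and the other genes named above was not tested.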

How the data were processed

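Plasma cell RNA was hybridised to 5 arrays, 2 ex vivo and 3 cultured. The authors processed them with the affy R package and RMA, and GCOS is also named in the submitters' processing notes. Tool versions were not given in the sources used here. Deposited values are linear intensities between 4.94 and 26947.18, with array medians from 87.05 to 94.19. No detection calls were used, and the number of arrays limits the precision.

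Samples were grouped from the labels. Control probe sets (64 of 45101) were left out. Of the rest, 34945 carry 1 symbol in the platform annotation, 932 several and 9160 none listed here, and genes were named only from the first kind. Updating symbols through RefSeq changed 0 of them. Values were converted to log2, and the 30477 of all 45037 kept probe sets that reached an intensity of 50 in 2 or more arrays were tested in R 4.3.3 with limma 3.58.1 (lmFit, eBayes, Benjamini-Hochberg adjustment over all of them, adjusted p under 0.05, two-sided). The study's methods name limma and give no covariate, and the first fit had none. The other fits had the experiment as a block, the experiment as the tested term, and the interaction. The labels give the experiment of each array. Across probe sets, an array's deviation from its group mean correlated with that of the ex vivo array of the same experiment at 0.75 (experiment 1), 0.56 (E2-1) and 0.72 (E2-2). With 2 ex vivo arrays these values are not independent. The root mean square log2 difference was 0.24 between E2-1 and E2-2 and 0.57 between the cultured array of experiment 1 and their mean. The fits were also tested on a simulated data set, drawn once with known changes added. There the share of false calls stayed below the adjusted p threshold without the block and exceeded it with the block.

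Named genes were all 9 members, up to 3 genes of each list past the test with the block or else up to 2 with the largest change, and the 5 genes nearest in profile to Egr1, Nr4a1 and Ier2. The members and lists were chosen with earlier results of these data known. Figures were drawn with matplotlib 3.10.9. Alternatives were the block, averaging of E2-1 and E2-2, the intensity filter, a floor, normalization, an intensity trend, the threshold, and each array left out in turn.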

Additional observations from a re-analysis of the deposited data

Results flagged for a closer look

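In 2 probe sets of Nr4a2 the change with culture had opposite signs in the experiments. For 1433423_at it was -0.14 in experiment 1 and 0.07 and 0.27 in experiment 2, a difference of 0.31 that did not pass the limma interaction test (adjusted p = 0.69). For 1450750_a_at it was 0.08 in experiment 1 and -0.05 and -0.01 in experiment 2, a difference of -0.11 (adjusted p = 0.80).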

How the results depend on the processing

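The number of member probe sets lower in culture was 0 without the block under every normalization, filter, moderation and left-out array tried, and 4 at an unadjusted p under 0.01. With the experiment as a replicate block it was 4, also with median centring or an intensity trend. It was 3 with the block when E2-1 and E2-2 were averaged, when either was left out (range over left-out arrays, with or without the block, 0 to 3) or when intensities below 50 were set to 50 (Egr2 1427682_a_at lost in each), and 2 (Egr1 and Ier2) without the filter. The block combined with median centring, the trend, the floor or no filter was chosen after seeing the data. No member passed as higher in culture in any setting. The number differing between the experiments ranged from 0 to 5 when 1 array was left out. The lists gave 4 genes with the replicate block against 0 without it. Egr1, Egr2, Egr3, Ier2, Nr4a3, Ier5 1417612_at, and Nr4a2 1433422_at and 1447863_s_at kept their direction in all settings tried. Those that turned had not passed in any setting. Nr4a2 1433423_at (-0.01) was 0.01 with E2-1 and E2-2 averaged, with or without the block, 0.04 with the block alone or with no filter, the floor or the trend, and -0.24 to 0.22 with 1 array left out (0.06 without E2-1, with or without the block). Nr4a2 1450750_a_at (0.00) was -0.04 with quantile normalization, -0.05 with median centring, -0.03 with the block and median centring, and -0.03 to 0.03 with 1 array left out. With 1 array left out, Nr4a2 1450749_a_at ranged from -0.28 to 0.05, Ier3 from -0.07 to 0.73, Ier5 1417613_at from -1.06 to 0.25 and Ier5 1460009_at from -0.13 to 0.56. The cause of these shifts was not tested. Probe sets below an intensity of 50, among them that of Nr4a1, are near the low end of the signal, where a change may not be detectable.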
